A study of Homo sapiens with 6 samples.

Results

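The genes described here lie on the short arm of chromosome 3, and most of them had fewer transcripts in ADRr cells than in parent MDA-MB-231 cells. They were taken as the rows of the gene table with a start from 40309684 to 87255548 on chromosome 3 (GRCh38) and at least 10 raw counts in 3 or more of the 6 libraries. The table holds 761 rows in that range, of which 252 passed the count minimum and 22 of these were left out by name, which left 230 genes of 58735 in the table. Of the 230 genes, 201 were protein-coding and 29 were of other types, and 228 were among the 15242 genes tested. The range had been chosen by the log2 fold changes of its genes between ADRr and parent cells in these libraries, so the lowering itself is a description of the block and is given with no test.

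The study sequenced RNA from MDA-MB-231, a triple-negative breast cancer cell line, to compare drug-sensitive with drug-resistant cells. The parent group (genotype WT, 3 libraries) is the line before selection. The ADRr group (genotype ADR resistant, 3 libraries) is a line derived from it by stepwise exposure to adriamycin, an anthracycline also called doxorubicin, with resistant clones then isolated by limiting dilution, so it stands for a single selected line. Both groups were grown in the same medium, and the sources used here give neither the adriamycin concentration at harvest nor whether the 3 libraries of a group came from separate cultures, so the spread between them may be technical.

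The short arm of chromosome 3 is one of the regions most often lost in epithelial tumours, and it carries a dense set of genes studied as tumour suppressors. These include chromatin regulators such as BAP1, PBRM1 and SETD2, the fragile-site gene FHIT, and the gene cluster around RASSF1, TUSC2 and NPRL2.

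Promoter sequences are shown for genes toward both ends of the block. GXYLT2, FRMD4B and DAG1 are the 3 lowest genes with an entry among those that averaged 100 or more normalized counts in their higher group and whose groups did not overlap, and VIPR1, ZNF662 and VGLL3 are 3 genes that went against the block under the same limits. VGLL3 lies beyond the upper edge described below, where the 10 tested block genes had a median log2 fold change of 0.25. Genes with larger changes but fewer counts, such as LTF, SLC6A20 and CHDH, are not shown. Each is the window from 250 bases before to 50 bases after the transcript start in RefSeq (GRCh38.p14), written 5′ to 3′ on the strand of the gene, with every CG dinucleotide in capitals. The RefSeq start of FRMD4B, DAG1 and ZNF662 is not the outermost start of the gene in GENCODE 29. The windows are chr3:72887796-72888095 on the plus strand for GXYLT2, chr3:69386039-69386338 on the minus strand for FRMD4B, chr3:49469882-49470181 on the plus strand for DAG1, chr3:42489049-42489348 on the plus strand for VIPR1, chr3:42905892-42906191 on the plus strand for ZNF662 and chr3:86991100-86991399 on the minus strand for VGLL3.
GXYLT2: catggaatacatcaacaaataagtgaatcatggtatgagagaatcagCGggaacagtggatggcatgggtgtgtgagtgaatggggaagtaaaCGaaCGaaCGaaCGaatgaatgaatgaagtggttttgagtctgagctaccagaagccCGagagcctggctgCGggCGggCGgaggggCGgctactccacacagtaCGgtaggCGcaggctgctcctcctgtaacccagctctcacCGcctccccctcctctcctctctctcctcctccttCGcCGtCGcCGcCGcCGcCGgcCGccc
FRMD4B: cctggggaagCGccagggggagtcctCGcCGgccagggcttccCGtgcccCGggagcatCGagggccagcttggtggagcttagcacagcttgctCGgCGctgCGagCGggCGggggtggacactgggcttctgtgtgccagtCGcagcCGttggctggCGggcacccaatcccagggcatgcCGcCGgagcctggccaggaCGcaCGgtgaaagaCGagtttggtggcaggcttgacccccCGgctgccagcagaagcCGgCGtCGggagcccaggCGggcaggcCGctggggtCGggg
DAG1: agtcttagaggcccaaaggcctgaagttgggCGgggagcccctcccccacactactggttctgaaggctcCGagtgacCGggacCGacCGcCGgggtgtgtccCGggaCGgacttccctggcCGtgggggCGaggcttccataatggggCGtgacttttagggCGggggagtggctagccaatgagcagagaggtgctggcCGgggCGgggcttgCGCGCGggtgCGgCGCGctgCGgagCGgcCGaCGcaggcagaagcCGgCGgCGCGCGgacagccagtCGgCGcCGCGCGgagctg
VIPR1: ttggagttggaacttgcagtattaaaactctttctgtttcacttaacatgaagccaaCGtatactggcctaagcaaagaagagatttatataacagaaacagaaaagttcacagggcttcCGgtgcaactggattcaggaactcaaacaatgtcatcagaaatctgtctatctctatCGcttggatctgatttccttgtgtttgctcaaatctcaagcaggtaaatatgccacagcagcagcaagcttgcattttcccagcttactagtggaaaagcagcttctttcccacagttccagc
ZNF662: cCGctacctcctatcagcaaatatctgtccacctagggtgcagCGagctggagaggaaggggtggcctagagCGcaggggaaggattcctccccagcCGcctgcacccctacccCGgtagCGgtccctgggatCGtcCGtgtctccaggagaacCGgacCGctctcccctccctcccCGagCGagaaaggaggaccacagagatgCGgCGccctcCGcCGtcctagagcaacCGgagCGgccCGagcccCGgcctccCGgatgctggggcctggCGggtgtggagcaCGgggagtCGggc
VGLL3: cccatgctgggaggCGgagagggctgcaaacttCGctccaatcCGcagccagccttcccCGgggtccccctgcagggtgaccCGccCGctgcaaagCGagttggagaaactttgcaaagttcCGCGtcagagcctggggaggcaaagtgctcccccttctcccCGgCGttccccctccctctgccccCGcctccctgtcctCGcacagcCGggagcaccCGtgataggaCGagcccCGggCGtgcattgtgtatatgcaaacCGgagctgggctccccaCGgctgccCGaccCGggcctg

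The window of VIPR1 stands apart from the other windows shown, with 3 CG dinucleotides and a GC content of 41.3%, against 21 to 34 CG dinucleotides in the other 5. It holds the letters TATAAA on the strand opposite the gene, where the printed strand reads TTTATA, and these letters were found on either strand in 7.26% of the 179 promoters of block genes with an entry and in 11.97% of all 27195 promoters in RefSeq. The other 5 windows hold no TATAAA on either strand. The GC box GGGCGG was found in the windows of GXYLT2, FRMD4B, DAG1 and VGLL3, and in 67.6% of block promoters against 70.0% of the promoters of all tested genes. Block promoters had a median of 28 CG dinucleotides, the rest of chromosome 3 a median of 25 and all tested genes a median of 26, so the windows of the block differed little in this measure from those of other expressed genes. The 116 promoters of genes called lower and the 10 of genes called higher had medians of 28 and 26.

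The libraries held 15983985 to 18272314 counts, and the TMM scaling factors lay between 0.987 and 1.01. Vimentin, CD44, MSN, AXL and CAV1, which mark the mesenchymal MDA-MB-231 line, were at 65.7 FPKM or more in every library. Their levels differed between the groups. Vimentin (log2 fold change -0.56), AXL (-0.62) and CAV1 (-1.30) were called lower in ADRr cells, CD44 (0.80) was called higher and MSN (0.13) was not called. ESR1 and PGR had at most 1 count in a library, while ERBB2, CDH1, EPCAM and GATA3 were present at 0.939 to 12.4 FPKM. ERBB2 (-1.24) and CDH1 (-1.07) were called lower, EPCAM (1.10) was called higher and GATA3 (-0.22) was not called. The 6 leukocyte markers summed to at most 0.121 FPKM and the 3 endothelial markers to at most 0.128 FPKM in any library. Of 3 fibroblast markers, DCN had no count, and the sum of the list, mostly PDGFRB, was 9.93 to 10.3 FPKM in parent and 1.97 to 2.32 FPKM in ADRr libraries. The part of these marker differences in the block values was not tested.

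The median of the block was lower in each ADRr library by nearly the same amount. The median block gene stood at -0.56, -0.56 and -0.55 on the log2 scale in the 3 ADRr libraries relative to the mean of the parent libraries, and at -0.01, 0.01 and 0.01 in the parent libraries, which did not overlap them. The tested genes of chromosome 3 beyond the range stood at 0.08, 0.04 and 0.10 in the same ADRr libraries, and those before the range at -0.37, -0.41 and -0.39. Block genes took 1.51 ± 0.0054% of all counts in parent and 1.13 ± 0.011% in ADRr libraries (SD, n = 3). These are bulk libraries scaled to each other, so less RNA per cell and fewer cells carrying these transcripts cannot be told apart.

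**Figure D1:**
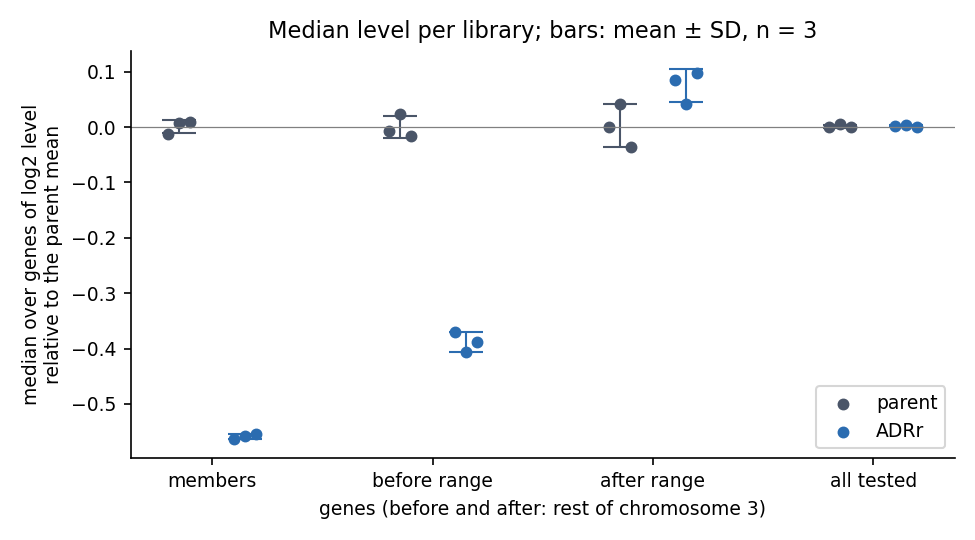
Median deviation from the parent mean (log2 of normalized count plus 1) in each of the 6 libraries, for the block genes, for chromosome 3 before and after the range and for all tested genes. The 3 ADRr libraries lie between -0.56 and -0.55 for the block, between -0.41 and -0.37 before the range and between 0.04 and 0.10 after it.

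In the fit over all 15242 tested genes, the median log2 fold change of the 228 tested block genes was -0.58, a ratio of ADRr to parent of 0.670, with quartiles at -0.88 and -0.19. The median over all tested genes was -0.0061, with quartiles at -0.46 and 0.45. Of the block genes, 188 had a negative fold change, 139 were called lower, where 29.6% of all tested genes were called lower, and 15 were called higher, where 29.2% of all tested genes were called higher. A call needed an adjusted p of at most 0.05 in edgeR's quasi-likelihood test and a fold of at least 1.2, and as this comparison chose the range, nothing is read from these shares. With the adjusted p alone the counts were 145 lower and 17 higher, where 33.2% and 32.8% of all tested genes were called, and with a log2 fold change of at least 1.2 they were 24 and 3, where 6.38% and 7.31% were called. Every ADRr library was below every parent library for 152 block genes (34.7% of all tested genes) and above for 20 (34.5% of all tested genes), and the groups overlapped for the other 56.

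The block genes were spread around their median, and whether a single factor shifted them was not tested. A total of 88 genes (38.6%) lay within 0.25 of the block median on the log2 scale, compared with 29.6% of all tested genes around theirs, and the median standard error of a block gene was 0.094. At the ends, 43 genes had a log2 fold change of -1 or lower and 3 of 1 or higher, from -2.79 for GXYLT2 to 4.04 for SLC6A20. Split by FPKM into 3 sets of 76 genes, the medians from the lowest to the highest set were -0.42, -0.62 and -0.67. In the same order, 43, 19 and 12 of 76 genes were not called. Of all tested genes within the same FPKM limits, 2756 of 5514, 1697 of 4670 and 1831 of 5058 were not called. Protein-coding genes had a median of -0.59 (132 of 201 called lower, 11 higher), and the 27 tested genes of other types, mainly antisense and long noncoding RNAs and pseudogenes, a median of -0.19 (7 called lower, 4 higher). Of all tested genes, 29.6% were called lower and 29.2% higher. The 16 genes named as zinc finger or KRAB proteins had a median of -0.45.

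**Figure D2:**
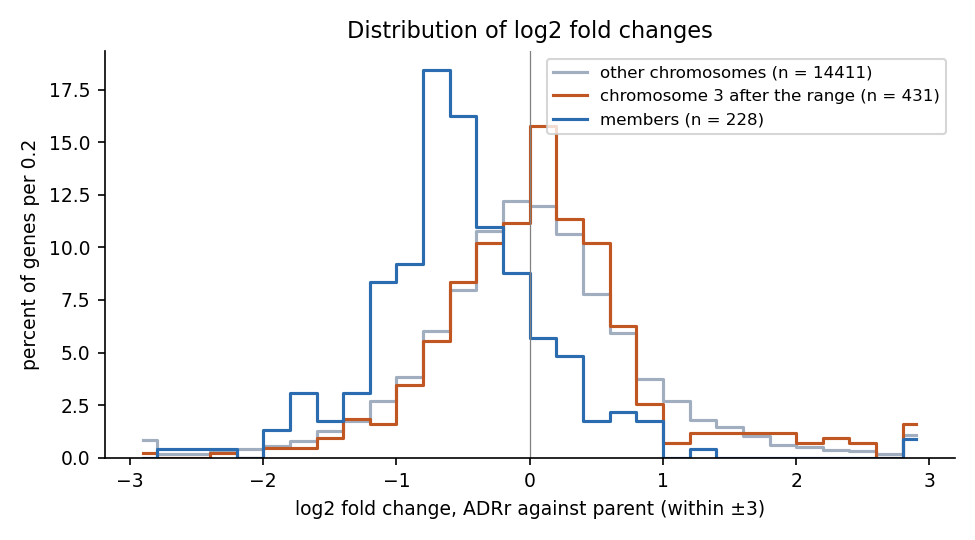
Distribution of log2 fold changes (ADRr over parent) for the 228 tested block genes, for chromosome 3 after the range and for the tested genes of other chromosomes. The block has its median at -0.58, chromosome 3 after the range at 0.077 and the other chromosomes at 0.0023.

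The edges were sought along the 831 tested genes of chromosome 3, including the genes left out by name, with the interval whose single median level left the smallest sum of absolute deviations. The interval ran from CRBN at 3144628, with 1 tested gene before it, to EBLN2 at 73061659, and held 389 genes with a median of -0.58, against 0.08 outside it. Fitted to each ADRr library alone, the interval started at the same gene and ended at 73.1, 75.2 and 73.1 Mb. The lower limit of the range at 40309684 is therefore no edge of this interval, and the upper edge lies inside the range, 10 tested block genes before its upper limit. A single interval lowered the summed deviation by 9.49%, so most of the spread among genes remained within the levels.

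When the chromosome was split into 4 runs, a split added after the interval had been seen to reach the end of the chromosome, an inner edge appeared at the lower limit of the range. The run from TRNT1 to CAPN7 (3.13 to 15.2 Mb, 69 genes) had a median of -0.64, with 48 genes called lower and 5 higher. The run from SH3BP5-AS1 to ENTPD3 (15.3 to 40.4 Mb, 84 genes) had a median of -0.11, with 34 called lower and 13 higher. The run from 40.5 to 73.1 Mb, which ends with EBLN2 and is the core of the block, held 237 genes with a median of -0.61, 153 called lower and 14 higher. The 441 genes from 75.2 Mb to the end of the chromosome had a median of 0.08, with 115 called lower and 136 higher. In the order of the 4 runs, 69.6%, 40.5%, 64.6% and 26.1% of genes were called lower. Of all tested genes, 29.6% were called lower and 29.2% higher. The short arm thus held 2 lowered stretches with a less lowered stretch between them, and the same 3 boundaries were found with 5, 6 and 7 runs.

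**Figure D3:**
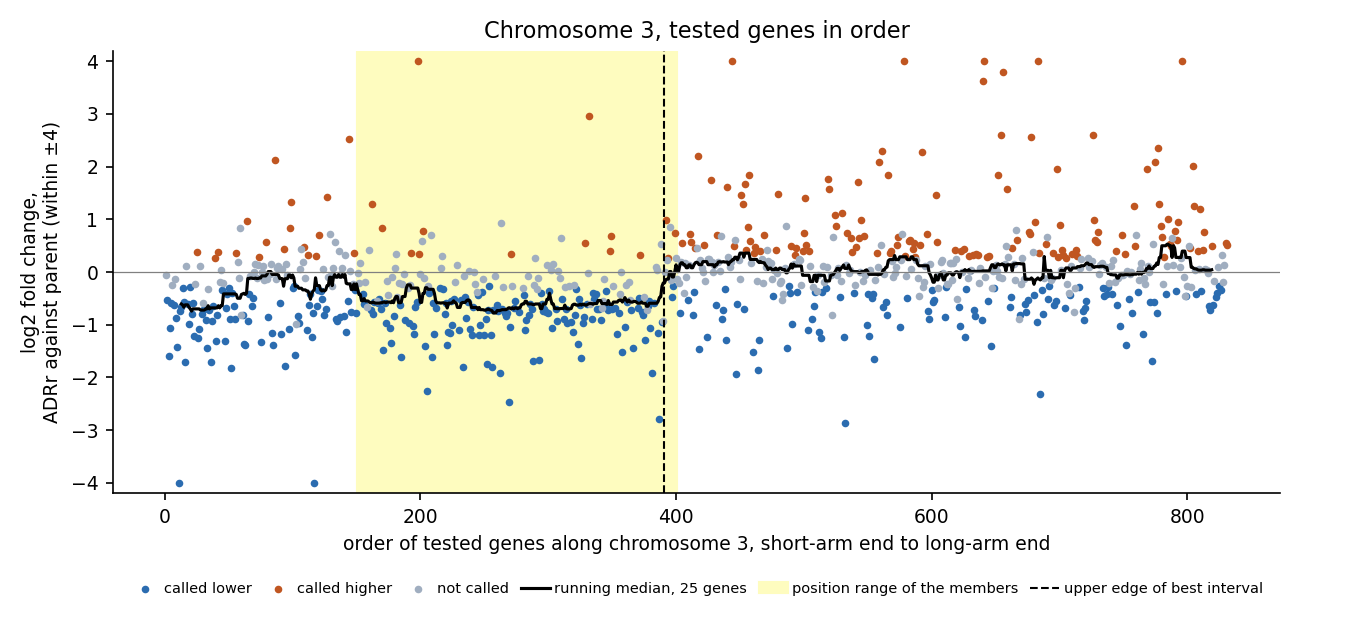
Log2 fold change (ADRr over parent) of the tested genes of chromosome 3 in the order of their start sites, with the running median over 25 genes and the limits of the range. The running median falls on both lowered stretches and returns to about 0 where the 441 genes after the upper edge begin.

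At the lower limit the first block genes were not called, while the nearest tested genes outside it moved in both directions. EIF1B, a translation initiation factor at the limit, had a log2 fold change of -0.022, ENTPD3-AS1 one of -0.21 and ENTPD3, an ectonucleotidase, one of 0.16, and none of the 3 was called. Before the limit, RPSA, a ribosomal protein, was called lower (-0.78), as was SLC25A38, a mitochondrial glycine carrier (-0.33), while CSRNP1, a nuclear protein, was called higher (0.35).

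At the upper edge the median level changed across a stretch of the chromosome without a tested gene, though not every gene just before it was lowered. RYBP (0.048), EIF4E3 (0.10) and the pseudogene FTH1P23 (0.54), all before the edge, were not called. SHQ1, an assembly factor of box H/ACA ribonucleoproteins, had 415, 437 and 407 normalized counts in parent and 181, 176 and 205 in ADRr libraries (log2 fold change -1.16, SE 0.10), and PPP4R2, a regulatory subunit of protein phosphatase 4, had 1898, 1926 and 1712 in parent and 956, 934 and 976 in ADRr libraries (-0.95, SE 0.063). Both genes had ADRr libraries far below all parent libraries. EBLN2, the last gene of the interval, had 11 to 26 counts in parent and 10 to 14 in ADRr libraries and was not called. The next tested gene, the pseudogene HNRNPA3P6, stood at 0.0093. The 10 tested block genes beyond the edge had a median of 0.25, with 2 called lower and 3 higher, against a median of -0.59 and 137 called lower and 12 higher among the 218 before it. Of all tested genes, 29.6% were called lower and 29.2% higher. The protein-coding genes beyond the edge were ZNF717 (-0.47), GBE1, VGLL3 (0.75) and CHMP2B, and the others were pseudogenes or long noncoding RNAs. With protein-coding genes only, the upper edge moved to GBE1. Of the 2 lower genes beyond the edge, GBE1, the glycogen branching enzyme, had 1523, 1563 and 1528 normalized counts in parent and 1323, 1260.0 and 1243 in ADRr libraries (-0.27, SE 0.059), which did not overlap, and its call was lost without ADRr replicate 2 (-0.26) or ADRr replicate 3 (-0.25), where the fold fell just under 1.2. CHMP2B, a subunit of the membrane-remodelling complex ESCRT-III and the last block gene, stood at 0.26 and was not called. Past the range, C3orf38 was called lower (-0.79) and the neighbours CGGBP1 (-0.13) and ZNF654 (-0.21) were not.

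Within the block the lowering was not even along the chromosome. In 10 consecutive sets of 22 or 23 tested block genes the median log2 fold change was -0.55, -0.30, -0.58, -0.51, -0.72, -0.61, -0.63, -0.60, -0.68 and -0.21. The highest of these are the second, which runs from 44.1 to 45.9 Mb up to FYCO1, and the last, which crosses the upper edge. The lowest is the set from QRICH1 to RBM5, where 18 of 23 genes were called lower and 1 higher, beside 29.6% and 29.2% of all tested genes. Counted over tested block genes alone, without the genes left out by name, the longest stretch with negative fold changes held 19 genes in a row, from SLC25A20 to DAG1 at 48.9 to 49.5 Mb, with 15 called lower. From CCRL2 at 46.4 Mb to TRAIP at 49.8 Mb, 63 tested block genes in a row held none called higher, and 47 of them were called lower.

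Against the other chromosomes, no run of 228 consecutive tested genes was as low as the block. The lowest such runs were on chromosome 15, with a median of -0.53, and on chromosome 4, with a median of -0.45, among the 20 other chromosomes with enough tested genes. Over whole chromosomes the lowest medians were -0.40 on chromosome 15 and -0.33 on chromosome 4, and the highest was 0.70 on chromosome 21. The range had been picked for a low median and these runs had not been picked in the same way, so no test was made.

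Among block genes that averaged 100 or more normalized counts in their higher group and whose groups did not overlap, the 8 lowest belonged to several pathways. GXYLT2, a xylosyltransferase that extends O-glucose on the EGF repeats of Notch, had 243, 226 and 162 normalized counts in parent and 23.8, 42.9 and 25.2 in ADRr libraries (log2 fold change -2.79, SE 0.21). UBA7, the activating enzyme for the ubiquitin-like protein ISG15, had 508, 574 and 601 in parent and 99.9, 118 and 87.8 in ADRr libraries (-2.46, SE 0.12). FRMD4B, a FERM domain scaffold protein, had 182, 202 and 179 in parent and 52.3, 54.4 and 42 in ADRr libraries (-1.92, SE 0.16). For each of these 3 genes every ADRr library was far below the parent libraries, with the widest relative spread among ADRr libraries in GXYLT2.

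DAG1, which encodes dystroglycan, the laminin receptor of the dystrophin complex, had the most counts of these 8 genes, with 8082, 7726 and 7979 normalized counts in parent and 2120.2, 2112 and 2077 in ADRr libraries (-1.91, SE 0.05). PFKFB4, a kinase and phosphatase that sets the level of fructose 2,6-bisphosphate in glycolysis, had 305, 286 and 279.5 in parent and 80.9, 83.7 and 84.1 in ADRr libraries (-1.80, SE 0.12). QARS, the glutaminyl-tRNA synthetase, had 3453, 3309 and 3319 in parent and 1032, 1036 and 925 in ADRr libraries (-1.75, SE 0.06). The spread within each group was narrow beside the gap between the groups for all 3. KLHDC8B, a kelch protein of the dividing cell's midbody, and DOCK3, an exchange factor for RAC1, completed the 8 at -1.79 (SE 0.14) and -1.67 (SE 0.23).

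Several block genes act on dystroglycan or on the sugars of Notch, a grouping made after the values were seen. POMGNT2, which adds N-acetylglucosamine to the O-mannose of dystroglycan, had 675, 585 and 703 normalized counts in parent and 233, 257 and 217 in ADRr libraries (-1.48, SE 0.10). GMPPB, which makes the GDP-mannose used for that O-mannose, had 807, 739.9 and 866 in parent and 457, 431 and 463 in ADRr libraries (-0.84, SE 0.081). EOGT, which puts N-acetylglucosamine on EGF repeats of Notch and other proteins, had 640.1, 591 and 528 in parent and 237, 212 and 269.9 in ADRr libraries (-1.29, SE 0.10). All 3 had every ADRr library below every parent library, as did 152 of the 228 tested block genes and 34.7% of all tested genes. LAMB2, a laminin chain, was lower by much less, at -0.26 (SE 0.055).

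**Figure D4:**
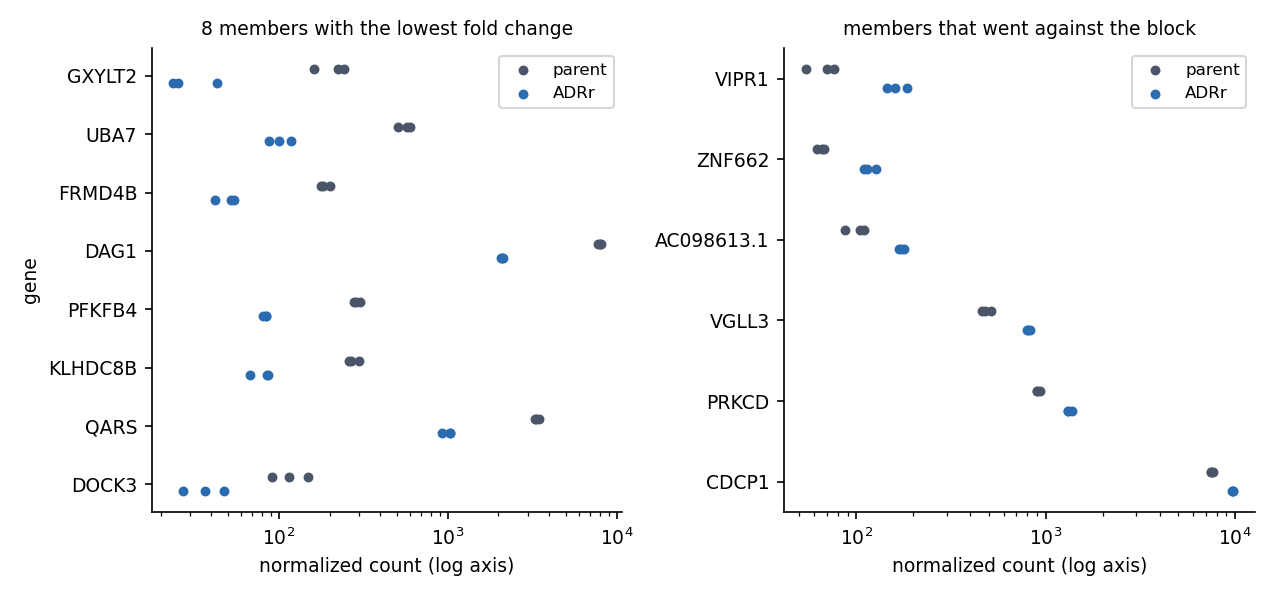
Normalized counts per library (log axis) of block genes with the lowest fold changes and of block genes called higher, for genes averaging 100 or more normalized counts in their higher group whose groups stayed apart. Points are single libraries, 3 per group, and in each gene the ADRr points lie wholly to one side of the parent points.

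Among the 5 block genes with the most counts, 3 were lowered near the block median. RHOA, the small GTPase of actin stress fibres, had 10093, 10457 and 10018 normalized counts in parent and 6494, 6494 and 6731 in ADRr libraries (-0.63, SE 0.046). MAP4, a microtubule-binding protein, had 9539, 9836 and 9495 in parent and 6454, 6597 and 6715 in ADRr libraries (-0.55, SE 0.046). TKT, the transketolase of the pentose phosphate pathway, had 8079, 7089 and 8597 in parent and 5093, 5257 and 5215 in ADRr libraries (-0.61, SE 0.058). All 3 had the ADRr libraries below the parent libraries. CDCP1, also among the 5, was called higher and is described with the genes against the block.

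Of 20 candidate tumour suppressors listed for the region, 18 were block genes and tested, and 14 of them were called lower, 1 higher and 3 neither, with a median of -0.68. Over the whole block 61.0% of tested genes were called lower and 6.58% higher with a median of -0.58, and over all tested genes 29.6% and 29.2%. HYAL1 and ZMYND10 did not reach the count minimum. BAP1, a deubiquitinase of chromatin, had 2769, 2694 and 2903 normalized counts in parent and 1483, 1466 and 1322 in ADRr libraries (-0.97, SE 0.059). PTPRG, a receptor tyrosine phosphatase, had 3161, 3247 and 3132 in parent and 1114, 1014 and 1214 in ADRr libraries (-1.51, SE 0.063). The groups were apart for both genes. In the 3p21.3 gene cluster, TUSC2 (-0.90), NPRL2, a subunit of the GATOR1 complex (-0.81), and HYAL2, a hyaluronidase (-1.10), were called lower. RASSF1, a Ras association scaffold that lies among them, had 906, 921 and 913 normalized counts in parent and 855, 939.8 and 813 in ADRr libraries (-0.072, SE 0.071), with ADRr values on both sides of the parent values. The splicing regulators RBM5 (-0.55) and RBM6 (-0.68) and the LIM domain protein LIMD1 (-0.66) were called lower. FHIT, a dinucleotide hydrolase, had 28.8, 37.9 and 35.1 normalized counts in parent and 36.2, 36.6 and 29 in ADRr libraries, and HYAL3 stood at -0.30. Neither was called. LTF and CACNA2D2 had the lowest fold changes of the list but few counts, with 12 to 18 raw counts in parent and 1 to 6 in ADRr libraries for LTF and 12 to 23 against 2 to 9 for CACNA2D2. Both are among the 14 called lower, but they reached the count minimum through the parent libraries alone. Their place in the block thus rested on the group where they were higher. LRIG1, a membrane protein that restrains EGF receptors, was the exception of the list and was called higher, with 1573, 1493 and 1592 normalized counts in parent and 1965, 1952 and 1930.4 in ADRr libraries (0.33, SE 0.056).

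**Figure D5:**
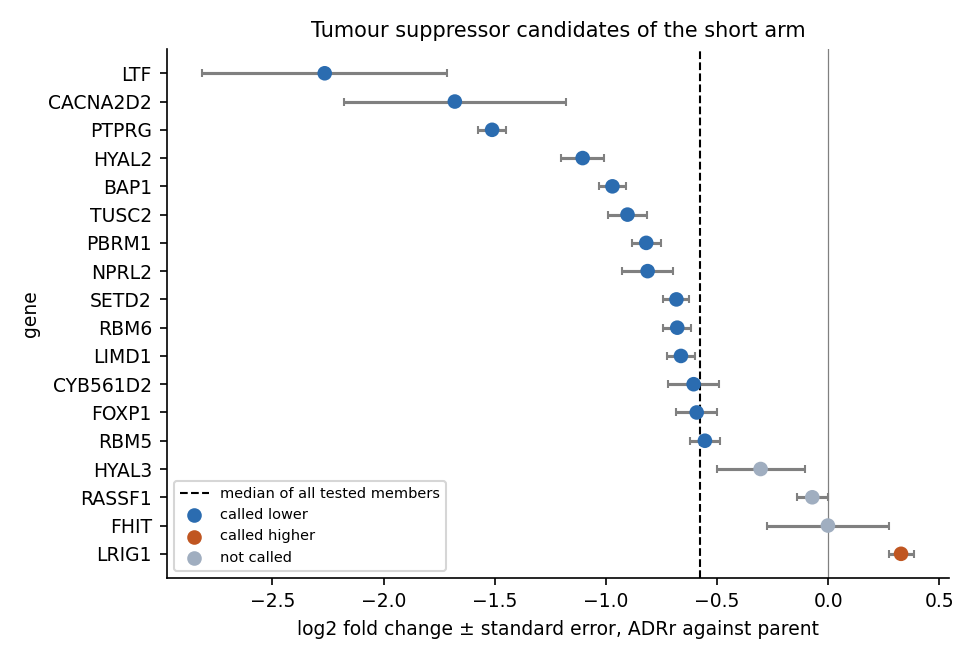
Log2 fold change (ADRr over parent) with its standard error for the 18 tested tumour suppressor candidates of the block, with a line at the block median of -0.58. LRIG1 alone is called higher, and FHIT and RASSF1 lie at about 0.

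Of the 12 listed chromatin regulators, 9 (75%) were called lower and none higher, with a median of -0.69, beside 61.0% called lower in the block and 29.6% of all tested genes. SMARCC1, a core subunit of SWI/SNF remodelling complexes, had 2731, 2751 and 2629.8 normalized counts in parent and 1207, 1207 and 1286 in ADRr libraries (-1.13, SE 0.057). PBRM1, the bromodomain subunit of another SWI/SNF complex, had 2355, 2582 and 2146 in parent and 1359.9, 1346 and 1308 in ADRr libraries (-0.82, SE 0.065). SETD2, the histone H3 lysine 36 methyltransferase, had 1989, 1943 and 1865 in parent and 1159, 1221 and 1231 in ADRr libraries (-0.68, SE 0.059). No library of one group reached the other group in these 3 genes. SFMBT1 (-0.97) and WDR82, a subunit of H3 lysine 4 methyltransferase complexes (-0.90), were also called lower. RYBP, a Polycomb subunit (0.048), PHF7 (-0.27) and ATXN7, a SAGA subunit (-0.53), were not called. The symbol ATXN7 occurs in 2 rows of the table, and the other row was under the count minimum.

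Of 15 listed ubiquitin and proteasome genes, 11 were tested and 10 of these (90.9%) were called lower and none higher, with a median of -0.73, beside 61.0% called lower in the block and 29.6% of all tested genes. Beside UBA7 and KLHDC8B these were KCTD6 (-1.17), RNF123, a ubiquitin ligase (-0.78), PSMD6, a subunit of the proteasome lid (-0.73), USP19, a deubiquitinase (-0.72), UBA3, part of the NEDD8 activating enzyme (-0.56), ARIH2 (-0.44), KLHL18 (-0.30) and BAP1. USP4, a deubiquitinase that lies near USP19, was not called, with 964, 1036 and 970.1 normalized counts in parent and 898, 1019 and 921 in ADRr libraries (-0.066, SE 0.07). Its groups overlapped.

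Of the 19 genes of RNA processing and translation, 13 (68.4%) were called lower and none higher, with a median of -0.55, beside 61.0% called lower in the block and 29.6% of all tested genes. DHX30, an RNA helicase of mitochondrial ribosome assembly (-1.15), LARS2, the mitochondrial leucyl-tRNA synthetase (-1.17) and SHQ1 (-1.16) followed QARS. EIF1B (-0.022), DCP1A, a decapping factor (-0.016), EIF4E3 (0.10), EXOSC7, a subunit of the RNA exosome (-0.24), RPP14 (-0.26) and HEMK1, a methyltransferase (0.26), were not called.

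Of 22 tested genes of mitochondria and metabolism, 14 (63.6%) were called lower and 1 higher, with a median of -0.49, beside 61.0% called lower in the block and 29.6% of all tested genes. The higher one, CHDH, reached the count minimum through the ADRr libraries alone. IMPDH2, the rate-limiting enzyme of guanine nucleotide synthesis, had 5293, 5686 and 5366 normalized counts in parent and 2294, 2456 and 2343 in ADRr libraries (-1.20, SE 0.052), with no overlap. UQCRC1, a subunit of respiratory complex III (-0.88), ACOX2, a peroxisomal oxidase (-0.78), and SUCLG2, a subunit of succinyl-CoA synthetase (-0.75), were called lower. ALAS1, the first enzyme of haem synthesis, stood at 0.027, and NDUFAF3, an assembly factor of complex I, at -0.14. Neither was called.

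Of 21 genes of small GTPase and kinase signalling, 15 (71.4%) were called lower and 2 (9.52%) higher, with a median of -0.63, beside 61.0% and 6.58% in the block and 29.6% and 29.2% of all tested genes. The inositol hexakisphosphate kinases IP6K2 (-1.20) and IP6K1 (-0.78), the G protein subunit GNAI2 (-0.75), the endosomal adaptor APPL1 (-0.90) and the integrin-binding protein NISCH (-0.94) were called lower. PRKCD and MST1R were called higher. MAPKAPK3, a kinase downstream of p38, stood at -0.11 and was not called.

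Of 14 tested genes of cytoskeleton, matrix and adhesion, 10 (71.4%) were called lower and 2 (14.3%) higher, with a median of -0.61, beside 61.0% and 6.58% in the block and 29.6% and 29.2% of all tested genes. PRICKLE2, a planar polarity protein (-1.45), CSPG5, a proteoglycan (-1.39), MAGI1, a junction scaffold (-0.67), and COL7A1, the collagen of anchoring fibrils (-0.48), were called lower. VIPR1, which had the highest fold change of the list and is one of the 2 called higher, is a peptide receptor and not a cytoskeletal or matrix protein. Of 9 listed chemokine receptor genes of the cluster near 46 Mb, 7 were under the count minimum, and the other two, CXCR6 (0.58) and CCRL2 (-0.12), were not called.

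The 15 genes called higher numbered 2, 3, 1, 0, 1, 0, 0, 4, 1 and 3 in the 10 consecutive sets above. In order of fold change they included SLC6A20, CHDH, VIPR1, OR7E22P, ZNF662, AC098613.1, VGLL3, PRKCD, CDCP1, MST1R, LZTFL1, LRIG1 and FAM86DP. For 7 of them both neighbouring tested block genes had negative fold changes, and for VIPR1, ZNF662, PRKCD and LRIG1 both neighbours were called lower. Over the whole block 82.5% of tested genes had a negative fold change and 61.0% were called lower, so nothing is read from these counts. OR7E22P, FAM86DP and VGLL3 lie beyond the upper edge.

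VIPR1, the receptor for vasoactive intestinal peptide, whose window of few CG dinucleotides is printed above, had 76.2, 54.1 and 70.1 normalized counts in parent and 161, 185 and 145 in ADRr libraries (1.29, SE 0.17). Its neighbours TRAK1 and SEC22C were called lower at -0.73 and -0.80. ZNF662, a KRAB zinc finger gene, had 67.9, 61.7 and 66.2 in parent and 127, 114 and 109 in ADRr libraries (0.84, SE 0.17), between KRBOX1 at -0.70 and POMGNT2 at -1.48. Every ADRr library was above every parent library for both genes.

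PRKCD, the protein kinase C delta, had 899, 898 and 935 normalized counts in parent and 1310.4, 1317 and 1379 in ADRr libraries (0.55, SE 0.063), and its neighbour TKT stood at -0.61. CDCP1, a transmembrane substrate of SRC family kinases, had 7642, 7469.5 and 7498 in parent and 9726, 9805 and 9673 in ADRr libraries (0.37, SE 0.045). Both were narrowly spread within groups and did not overlap between them. Whether the counting used strand is not given in the sources used here, so reads may not be separated for the 84 tested block genes that overlap another tested gene on the other strand and the 30 that overlap one on the same strand.

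VGLL3, a cofactor of TEAD transcription factors, had 477, 516 and 459 normalized counts in parent and 827, 795 and 811 in ADRr libraries (0.75, SE 0.077), with the groups apart. It lies beyond the upper edge, next to GBE1. MST1R, the receptor tyrosine kinase RON, had 483, 452 and 566 in parent and 663, 661 and 592 in ADRr libraries (0.35, SE 0.089), and LZTFL1, a regulator of ciliary protein transport, had 309.8, 323 and 256 in parent and 357, 353 and 410.0 in ADRr libraries (0.34, SE 0.11). The ligand of MST1R is the product of MST1, also in the block, which stood at -0.28 and was not called. The lncRNA AC098613.1, beside the chemokine receptor cluster, was higher at 0.78 (SE 0.14). The pseudogenes OR7E22P and FAM86DP have near copies elsewhere in the genome, so their values are uncertain.

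The highest fold changes of the block were those of genes with very few reads in parent cells. SLC6A20, a proline transporter, had 1, 1 and 5 raw counts in parent and 44, 37 and 46 in ADRr libraries. CHDH, the mitochondrial choline dehydrogenase, had 4, 2 and 1 in parent and 14, 26 and 20 in ADRr libraries. Both reached the count minimum through the ADRr libraries alone, so their place in the block rested on the group where they were higher. LTF, CACNA2D2 and the lncRNA AC096888.1 reached it through the parent libraries alone. AC096888.1 and the pseudogene MPRIPP1 were the 2 block genes that were not tested, and they were also the genes nearest the minimum, with 10 or more counts in exactly 3 libraries and 10 as the lowest of these. Just outside it, 6 rows had 9 as the count that decided, among them HYAL1 with 10, 5 and 9 counts in parent and 9, 14 and 4 in ADRr libraries.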

How the data were processed

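Per the labels, the submitters' processing notes name fastp, HISAT2 2.0.5, featureCounts 1.5.0-p3 and DESeq2 1.20.0 with GRCh38. The study's methods describe Perl scripts for read cleaning in place of fastp, and the strand setting of counting is not given in the sources used here. The authors deposited raw counts per gene and FPKM values (counts scaled by gene length and library depth) for 6 libraries. The counts were used for every main value. The FPKM values were used for levels of markers, for splits by expression level and for an alternative.

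Counts were fitted in R 4.3.3 with edgeR 4.0.16 (filterByExpr, TMM scaling, quasi-likelihood test, Benjamini-Hochberg adjustment over 15242 genes). Calls needed an adjusted p no larger than 0.05 together with a fold of at least 1.2, and a log2 fold change is ADRr over parent. Normalized counts are counts divided by the TMM-scaled library size, at a common depth. Library deviations used log2 of normalized counts plus 1. The limit that a count of 0 allows (3 counts) is 0.164 to 0.188 CPM here and covers counting error only. An exact permutation test of 3 libraries against 3 cannot go below p = 0.1 and was not used.

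The edge search took the contiguous run of at least 10 genes whose median, beside the median of the other genes of chromosome 3, gave the smallest summed absolute deviation, and the split into 2 to 7 runs of at least 20 genes used the same measure. The edge search and the count model were tested on simulated data, and the split into runs was not. The members, gene lists and tests were chosen with earlier results of these data known. The naming rule took the 3 members and the 3 outside genes nearest each limit, up to 8 genes called lower and 8 called higher with the largest changes that averaged 100 or more normalized counts in their higher group and whose groups stayed apart, the 5 members with the most counts, the highest and the lowest gene of each list and every tumour suppressor candidate. Other genes were named after their values were seen.

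Alternatives were other scalings, filters, thresholds, limma 3.58.1 on FPKM, DESeq2 1.42.0, a replicate block and each library left out. Within groups the libraries differed by more than counting noise (chi-square per degree of freedom 2.59 to 8.32). This cannot tell separate cultures from separate preparations of the same culture. Coordinates are those of the table, and all 230 genes were found with the same coordinates in GENCODE 29. Some genes of the range are not reported here.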

Additional observations from a re-analysis of the deposited data

How the results depend on the processing

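The direction of the block, its calls and its edges were recomputed under each alternative. The median log2 fold change of the block was -0.58 and lay at -0.55 with library size as the only scaling, at -0.48 with limma on log2(FPKM + 1) and at -0.59 for members up to the upper edge, an alternative chosen after seeing the data. Leaving out each library in turn gave medians of -0.58 to -0.56, 135 to 141 genes called lower, 15 to 18 called higher and the same edges. Over all tested genes 28 to 29.3% were then called lower and 27.5 to 28.5% higher. The median of the rest of chromosome 3 lay between -0.044 and -0.0032 in these fits and was 0.0025 with no filter on low counts. With a log2 fold change of at least 1.2 in place of a fold of 1.2, 24 block genes were called lower and 3 higher, where 6.38% and 7.31% of all tested genes were called. With the adjusted p alone, 145 were called lower and 17 higher, where 33.2% and 32.8% of all tested genes were called. With no filter on low counts the best interval was the remainder of the chromosome, from 73808601 to 197960200, and the cause was not tested. With protein-coding genes only, the upper edge moved to 81489699, the start of GBE1. Of the 139 genes called lower, 125 to 139 kept the call under the settings that kept the fold threshold of 1.2, of the 15 called higher 11 to 15 did, and none was called in the opposite direction.

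Same-numbered libraries of the groups share only a number, since the correlations of their deviations were 0.0074, -0.021 and -0.046. With the replicate block the median was -0.58, with 138 genes called lower and 15 higher and the same edges. Of all tested genes, 29.3% were called lower and 28.9% higher in that fit. Of single genes, FOXP1 lost its call on the FPKM scale (-0.51 and -0.24 with pseudocounts of 0.1 and 1), GBE1 lost its call in 6 settings and CHMP2B and HEMK1, both at 0.26, gained one in 8 and 7 settings. Low counts limit the genes of the lowest FPKM, and with 3 libraries of 1 line per group the values describe that line.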
